A study of Mus musculus with 14 samples.

Results

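The genes described here are 10 mouse genes that encode the constant parts of antibodies and the J chain, out of 52550 genes in the count table: Ighm, Ighd, Ighg1, Ighg2b, Ighg2c, Ighg3, Igha, Igkc, Iglc2 and Jchain. They were chosen by name, with no expression value in the rule, and each had 1 row in the table. Expression was measured in 14 libraries of ribosome-depleted total RNA from C57BL/6 mouse bone marrow of 8 to 20 weeks of age. Of these, 4 were marrow of wild-type mice enriched for stem and progenitor cells of the blood (WT HSPCs), 4 were the same preparation from mice without the microRNA gene Mir139 (Mir139KO HSPCs), and 6 were cultures of WT HSPCs transformed with a retrovirus for the fusion gene MLL-AF9 (MLL-AF9 cells). The MLL-AF9 cultures 1 to 3 carried a vector with neomycin resistance (neo) and cultures 4 to 6 one with puromycin resistance (puro), and all were selected with the drug and replated repeatedly in semisolid medium. No library was of cultured HSPCs without the fusion gene, so culture and MLL-AF9 cannot be told apart. The labels do not state that replicates came from separate mice or cultures, and p-values measure the spread between these libraries, which may be technical. They also do not say for each HSPC sample whether the cells were lysed at once.

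An antibody is built from paired heavy and light chains, each with a variable part joined to a constant part. Ighm and Ighd encode the mu and delta heavy chains, which a naive B cell makes together from a single primary transcript. Ighg1, Ighg2b, Ighg2c, Ighg3 and Igha encode the gamma and alpha chains, which are used after class switching, when the rearranged variable segment is joined to a constant gene further downstream. Igkc and Iglc2 encode constant parts of the kappa and lambda light chains. Jchain encodes the joining chain that links IgM and IgA into polymers. In marrow these genes are read mostly in B-lineage cells, and most strongly in plasma cells, which secrete antibody.

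The 7 heavy chain genes lie on the minus strand of chromosome 12 (build GRCm38), from Ighm at chr12:113418558-113422730 through Ighd at chr12:113406604-113416324, Ighg3 at chr12:113356224-113361232, Ighg1 at chr12:113325240-113330523, Ighg2b at chr12:113302965-113307933 and Ighg2c at chr12:113285325-113288932 to Igha at chr12:113254830-113260236. Igkc lies at chr6:70726435-70726966, Iglc2 at chr16:19198396-19200351 and Jchain at chr5:88519809-88527891. Each heavy chain gene has a secreted and a membrane form, and counts per gene do not separate them.

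The ends of the secreted heavy chains are shown because they carry the feature that ties Jchain to 2 of its partners. The last 60 coding bases of the secreted forms are given 5′ to 3′, from the reference transcripts, with the codon before the last in capitals.
Ighm (chr12:113420870-113420929, minus strand): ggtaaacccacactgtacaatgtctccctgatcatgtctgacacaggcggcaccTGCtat
Igha (chr12:113258771-113258830, minus strand): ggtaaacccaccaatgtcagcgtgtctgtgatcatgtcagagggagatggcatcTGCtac
Ighg2b (chr12:113306392-113306451, minus strand): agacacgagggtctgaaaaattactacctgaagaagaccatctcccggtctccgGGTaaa
Ighm and Igha both end in a tailpiece whose penultimate codon, TGC, encodes the cysteine that bonds with the J chain, and 41 of their 60 bases were the same position by position. Ighg2b has GGT there, as do Ighg1, Ighg2c and Ighg3, and 25 of its 60 bases matched Ighm.

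The hinge exons of the 4 gamma genes are shown because these genes are the members most alike in sequence, so that reads could be split between them. Cysteine codons in frame are in capitals.
Ighg1 (chr12:113329844-113329882, minus strand): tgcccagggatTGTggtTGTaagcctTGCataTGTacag
Ighg2b (chr12:113307261-113307326, minus strand): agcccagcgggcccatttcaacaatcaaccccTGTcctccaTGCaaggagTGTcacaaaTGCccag
Ighg2c (chr12:113288263-113288325, minus strand): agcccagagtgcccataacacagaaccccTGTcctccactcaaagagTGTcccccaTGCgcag
Ighg3 (chr12:113360529-113360576, minus strand): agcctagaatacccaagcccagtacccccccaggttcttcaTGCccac
The exons are 39, 66, 63 and 48 bases long and hold 4, 4, 3 and 1 cysteine codons. Over the whole secreted coding sequence Ighg2b and Ighg2c were 85.9% identical in aligned bases, and the other gamma pairs 75.7% to 77.7%. Of all stretches of 50 bases in the transcripts of a gene, 5.49% in Ighg2c, 4.15% in Ighg2b, 1.58% in Ighg3 and 0.393% in Ighg1 also occurred in another gene. The values of these 4 genes therefore carry some uncertainty from shared reads, and so does Iglc2, where 7.65% was shared with Iglc3. Ighm, Ighd, Igha, Igkc and Jchain shared none.

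Total counts ranged from 35016668 to 45877994 per library, and levels are given as CPM (counts scaled to a common library size of 1e6) after TMM scaling over the 14 libraries. The long noncoding RNA gene Gm26917 took 17.0% to 21.9% of the counts in 4 HSPC libraries (WT 1 and 2, Mir139KO 2 and 3, called low share here) and 32.7% to 35.4% in the other 4 (WT 3 and 4, Mir139KO 1 and 4, high share), against 7.55% to 10.4% in MLL-AF9 cells. The 2 classes stand apart in the whole profile, so results in HSPCs are given within classes too. Mir139 was listed at 0 in all 14 libraries and could not check the genotype labels. As checks of the cell labels, Kit, Gata2 and Flt3, all HSPC genes, were present in WT HSPCs at a mean of 198.4, 164.2 and 53.4 CPM. Of 6 genes known to be raised by MLL-AF9, 5 rose against WT HSPCs, among them Meis1, Hoxa9 and Eya1 (background 32.8% of 17077 genes called higher). Eya1 differed between the vectors (log2 fold change of puro over neo 6.86, SE 0.91, edgeR adjusted p 0.031), so its mean does not stand for the neo cultures. The enrichment kit removes cells with lineage markers, B220 on B cells included. Of 11 genes of B cell identity, Ms4a1 (CD20) was at 0 in every library, and the summed level of the list was 54.6 to 102.9 CPM in WT HSPCs, 52.1 to 113.8 CPM in Mir139KO HSPCs and 5.39 to 40.1 CPM in MLL-AF9 cells.

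Counts were found in HSPCs for 9 of the 10 genes, few of them for Ighd (20 to 112 per library). Their summed share of all counts was 0.409% ± 0.138 (SD, n = 4) in the wild type and, with Mir139 deleted, 0.569% ± 0.0935 (SD, n = 4). It was 0.00186% ± 0.00139 in the MLL-AF9 cultures (SD, n = 6). In bulk RNA, fewer cells of a type and less RNA per cell cannot be told apart.

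Ighm, the mu chain, was at 2495, 1851, 2432 and 1555 CPM in WT HSPC replicates 1 to 4 and at 1851, 1926, 3123 and 6039 CPM in Mir139KO HSPC replicates 1 to 4. Igha, the alpha chain of mucosal IgA, was at 713, 1202, 4999 and 1418 CPM in WT and at 3793, 1964, 2066 and 3118 CPM in Mir139KO replicates. Both genes overlapped between the genotypes, and WT replicate 3 held the highest Igha level of the 8 libraries.

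Among the gamma chains, Ighg2b was at 157.3, 220.5, 542.2 and 178.2 CPM in WT and at 927.1, 600.7, 226.9 and 354.9 CPM in Mir139KO replicates 1 to 4. Ighg2c was at 57.5, 53.0, 315.7 and 29.2 CPM in WT and at 186.3, 219.8, 57.7 and 322.4 CPM in Mir139KO HSPCs. Ighg1 was at 43.0, 174.7, 106.3 and 113.0 CPM in WT and at 453.4, 235.6, 207.5 and 215.8 CPM in Mir139KO HSPCs. The WT and Mir139KO values of Ighg1 did not overlap, but how many of all genes had such values was not counted. Ighg3 was at 51.7, 95.9, 84.7 and 51.4 CPM in WT and at 62.8, 103.3, 45.4 and 214.0 CPM in Mir139KO HSPCs.

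Jchain was at 223.9, 321.4, 103.5 and 67.7 CPM in WT HSPCs and at 216.0, 270.2, 302.9 and 189.6 CPM in Mir139KO HSPCs. Its lowest values, in WT replicates 3 and 4, were both from high-share libraries. Iglc2, a lambda light chain gene, was at 15.4, 30.6, 49.3 and 36.4 CPM in WT and at 120.9, 37.8, 33.6 and 48.3 CPM in Mir139KO HSPCs. Ighd, the delta chain of naive B cells, was the lowest member with counts, at 2.33, 1.99, 1.40 and 1.34 CPM in WT and 1.21, 1.86, 1.22 and 0.798 CPM in Mir139KO HSPCs. For each Ighd count, the HSPC libraries held 929.3 to 7570 Ighm counts.

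**Figure D1:**
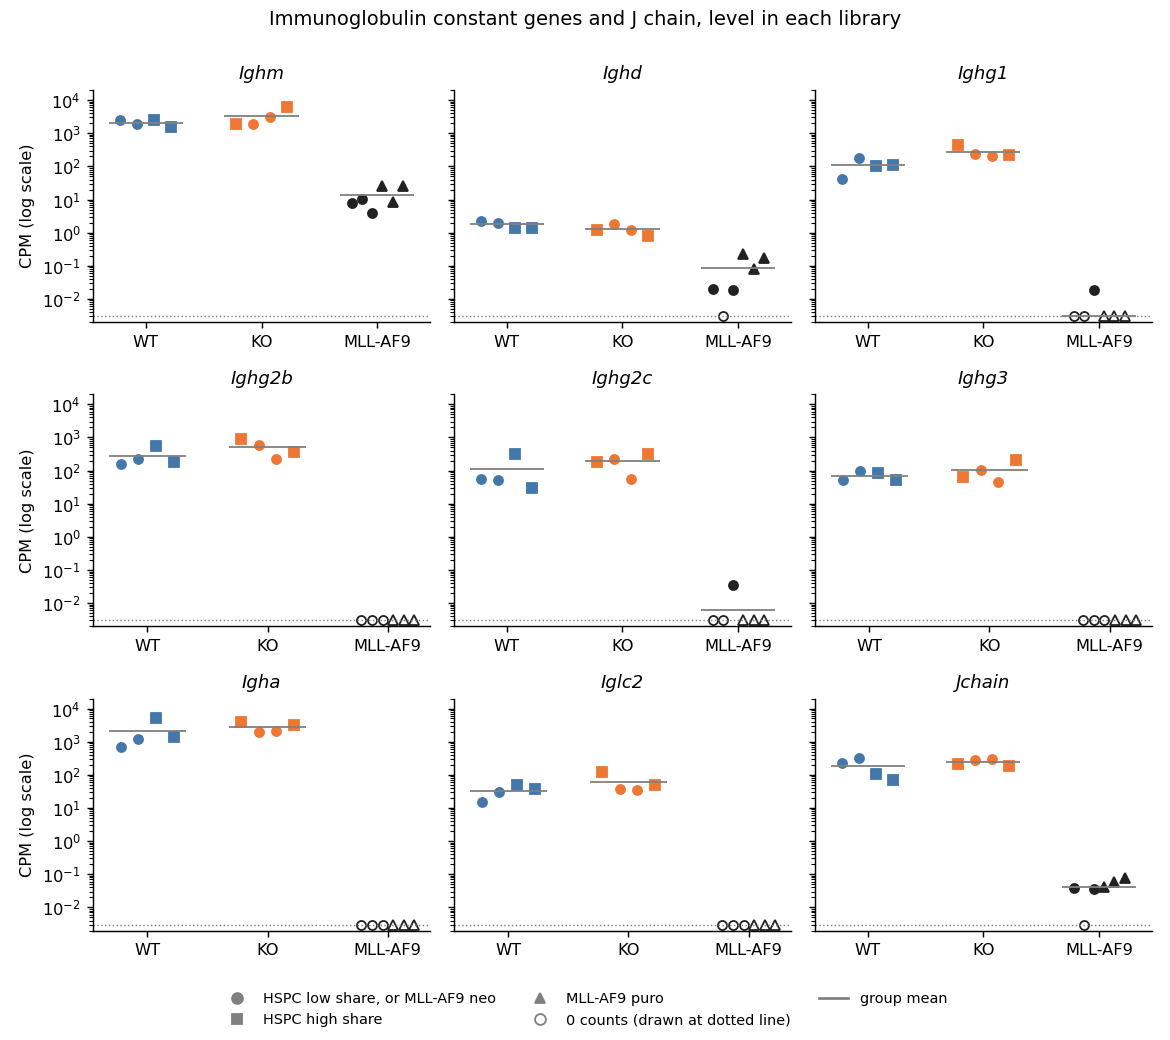
Level of the 9 members with counts in each library, in CPM on a log scale, for WT HSPCs, Mir139KO HSPCs and MLL-AF9 cells, with symbols for the Gm26917 share class or the vector and lines for group means. Open symbols on the dotted line are libraries with 0 counts, as in all 6 MLL-AF9 cultures for Ighg2b, Ighg3, Igha and Iglc2.

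Igkc, the constant gene of the kappa chain, was listed at 0 in all 14 libraries, although kappa is the main light chain of the mouse. The variable segments of the same locus were not at 0. The 160 Igkv segments together had 29259 to 78592 counts in WT HSPCs, 55260 to 75171 in Mir139KO HSPCs and 0 to 1 in MLL-AF9 cells. The kappa joining segments Igkj, and on the lambda locus Iglc1 and Iglc3, were also at 0 in every library. Igkc lies within the span of Gm30211, a noncoding gene on the same strand, which had 1033 to 2836 counts in HSPCs and 0 to 3 in MLL-AF9 cells and which was named after its values were seen. No exon of another gene covers the 532 bases of Igkc in annotation release M21, whereas the study counted with release M15, which was not analysed here. The level of Igkc, and with it the ratio of kappa to lambda, could not be measured from this table, and the reason for the 0 was not tested.

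Levels of different genes can be compared only per length. Per kilobase of annotated exon, the order in WT HSPCs was Ighm (1105 ± 242 CPM per kb, SD, n = 4), Igha (781 ± 737), Ighg2b (102.5 ± 67.3), Ighg2c (85.9 ± 102), Jchain (71.2 ± 46.1), Iglc2 (53.8 ± 22.9), Ighg1 (42.1 ± 20.8), Ighg3 (28.2 ± 9.11) and Ighd (0.929 ± 0.251). Neighbours in this order overlapped in their values over the 4 libraries, with the exceptions of Igha over Ighg2b and of Ighg3 over Ighd. The order in Mir139KO HSPCs was the same down to Ighg2c, from Ighm at 1715 ± 1038 to Ighg2c at 148.2 ± 82.3 CPM per kb (SD, n = 4), followed by Ighg1, Iglc2, Jchain, Ighg3 and Ighd. The same 2 gaps were the only ones without overlap there. The order depended on the length used. With the shortest coding transcript, which is the secreted form of a heavy chain gene, Igha came before Ighm, at 1893 against 1396 CPM per kb in WT and 2487 against 2166 in Mir139KO HSPCs. Lower places changed as well. Jchain came before Ighg2c in WT HSPCs (128.6 against 102.5), and Ighg1 before Ighg2c in Mir139KO HSPCs (258.4 against 176.9).

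As a share of the heavy chain counts per kb, Ighm made up 76.5%, 59.1%, 35.05% and 54.6% in WT replicates 1 to 4 and 31.8%, 44.8%, 62.3% and 65.1% in Mir139KO replicates 1 to 4. Igha made up 15.4% to 50.9% in WT and 23.8% to 46.01% in Mir139KO HSPCs, and the 4 gamma genes together 8.05% to 14% and 8.52% to 22.9%. Ighd stayed at or under 0.0708% in all 8 libraries. The ranges of the genotypes overlapped for each of the 3 classes, and Igha exceeded Ighm in WT replicate 3 and Mir139KO replicate 1 with these lengths. Within the gamma genes and with these lengths, Ighg2b had the largest share in 6 of the 8 libraries, and Ighg2c in WT replicate 3 and Mir139KO replicate 4. With the shortest coding transcript Ighg2b was above Ighg2c there too. The levels were 486.7 against 284.1 CPM per kb in WT replicate 3 and 318.6 against 290.2 in Mir139KO replicate 4.

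**Figure D2:**
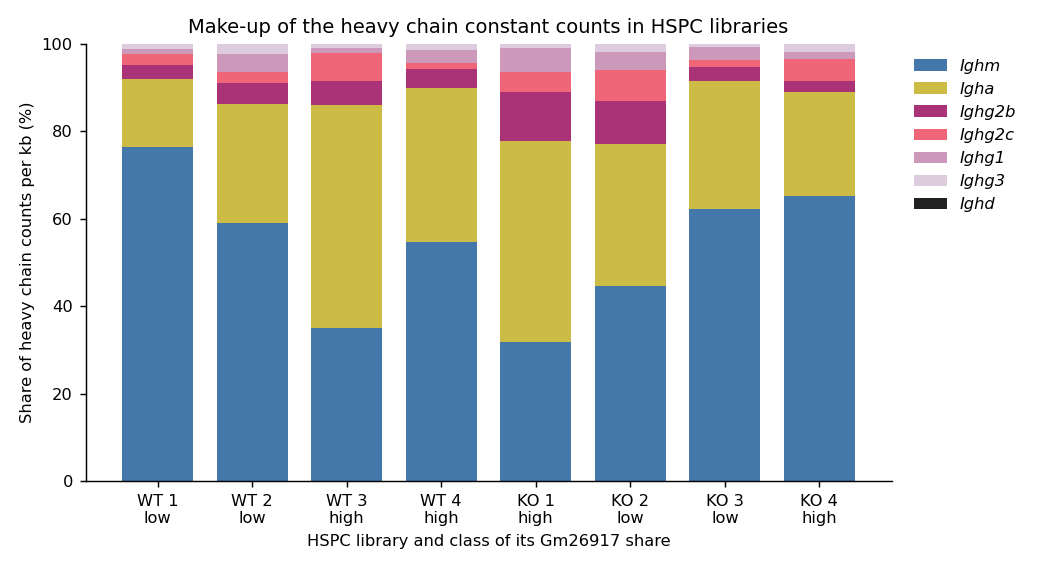
Share of each heavy chain gene in the heavy chain counts per kb of exon, in percent, for the 8 HSPC libraries, labelled by replicate and Gm26917 share class. Ighm ranged from 31.8% to 76.5% and Igha from 15.4% to 50.9%, while Ighd, at most 0.0708%, is too thin to be seen.

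Setting MLL-AF9 cells against the HSPCs they came from asks what differs after transformation. Antibody genes were nearly gone from MLL-AF9 cells. Every one of the 9 members that could be tested was lower (9 of 9 at an adjusted p under 0.05 in the quasi-likelihood test of edgeR, against a background of 29.4% of 17077 genes called lower), and no MLL-AF9 culture overlapped a WT HSPC library. Against Mir139KO HSPCs, with the same MLL-AF9 libraries, 9 of 9 were lower as well (background 31.9% of 16953 genes). A gene was tested only with at least 10 counts in as many libraries as the smaller group. Of the members, only Ighm reached this within MLL-AF9 cells. The others were tested because of their HSPC counts, which already set their direction. The counts of 9 of 9 beside the background therefore add little, and the sizes of the falls are the result. The median fitted log2 fold change of the members was -13.62 against WT, or -12.85 with the 4 genes at 0 set to their bound, where the median of all genes was 0.14. Against Mir139KO HSPCs the medians were -14.39 and -13.43.

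Ighg2b, Ighg3, Igha and Iglc2 had 0 counts in all 6 MLL-AF9 cultures. Taking 3 counts over the 6 libraries together as the floor, Igha was lower than in WT HSPCs by at least 216347-fold (115366-fold without WT replicate 3), Ighg2b by at least 28521-fold, Ighg3 by at least 7367-fold and Iglc2 by at least 3422-fold. Ighg1 had 1 count in all, a 34047-fold lower level than in WT HSPCs (95% exact Poisson interval 6111 to 1344772), and Ighg2c had 2, a 17737-fold lower level (4910 to 146460), or 7255-fold without WT replicate 3. These intervals and floors cover counting error only. All 3 gamma counts came from MLL-AF9 culture 3.

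Jchain had 2, 0, 2, 2, 3 and 4 counts in MLL-AF9 cultures 1 to 6, against 1823 to 13873 counts in HSPC libraries, and its log2 fold change was -11.98 against WT (SE 0.66, edgeR adjusted p 2.1e-07) and -12.44 against Mir139KO HSPCs (SE 0.43, adjusted p 6.7e-09). Ighm and Ighd were the members that kept most. Ighm ranged from 3.97 to 26.1 CPM in MLL-AF9 cells with a median of 9.44 (219 to 1388 counts), a log2 fold change of -7.25 against WT (SE 0.58, edgeR adjusted p 2.5e-06) and -7.89 against Mir139KO HSPCs (SE 0.65, adjusted p 1.4e-06). Ighd ranged from 0 to 0.221 CPM with a median of 0.0488 (0 to 11 counts), with log2 fold changes of -4.36 (SE 0.74, edgeR adjusted p 0.000403) and -3.89 (SE 0.72, adjusted p 0.000453). The fall of Ighd from WT HSPCs depended on the cultures, with a log2 fold change of -6.81 for neo and -3.46 for puro cultures alone, where Ighm had -8.10 and -6.68. It was -5.32 with a replicate block. Over all alternatives Jchain ranged from -14.17 to -11.02, and the 3 genes stayed called wherever they were tested. Ighm made up 97.3% to 100% of the member counts left in a culture.

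Other sequence of the antibody loci showed the same step. The 183 Ighv segments together had 18330 to 54685 counts in HSPC libraries and 28 to 67 in MLL-AF9 cells, and the Iglv segments 510 to 1831 and 0.

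The counts of other gene lists in MLL-AF9 cells against WT HSPCs stand beside 29.4% of all tested genes called lower and 32.8% called higher. Within MLL-AF9 cells, for puro against neo, only 4 of the 11 B cell, 3 of the 10 T and NK cell and 1 of the 7 erythroid genes could be tested. Most others in these lists were tested because of their HSPC counts, which already set their direction. For them the counts called add little. Of 10 tested genes of B cell identity, 9 fell against WT HSPCs, among them Pou2af1, a coactivator of immunoglobulin promoters, from 14.9 CPM to 0 counts in any culture, and the B cell receptor subunits Cd79a (log2 fold change -2.64, SE 0.44, edgeR adjusted p 0.000369) and Cd79b (-3.59, SE 0.55, adjusted p 0.000212). The 1 that rose, Bank1, a scaffold protein of B cell receptor signalling named after its value was seen, went from a mean of 0.958 to 15.2 CPM (log2 fold change 3.96, SE 0.81, edgeR adjusted p 0.0013). Bank1 was at 13.2, 33.2 and 31.2 CPM in neo and at 4.83, 3.38 and 5.61 CPM in puro cultures, a difference that did not pass the test (edgeR adjusted p 0.063). Of the regulators that fix B cell identity, also named after their values were seen, Pax5 fell from a mean of 4.06 to 0.0452 CPM and Ebf1 from 5.57 to 0.0570 CPM.

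Of 16 genes of plasma cells and secretion, 11 fell and 3 rose against WT HSPCs. Txndc5 and Ssr4, which act in the folding and entry of secreted proteins, fell by 2.95 and 1.28 on the log2 scale, while Xbp1, the regulator of the secretory programme, rose by 0.75 (SE 0.25, edgeR adjusted p 0.020), which did not pass against Mir139KO HSPCs (0.45, adjusted p 0.10). The others that rose were Sec11c and Ell2, and among those that fell were the plasma cell surface marker Sdc1 (19.5 to 1.92 CPM) and Mzb1, a cofactor in antibody assembly (13.1 to 0.0520 CPM), all 4 named after their values were seen. Summed over the list the ranges overlapped, at 886 to 1284 CPM in WT HSPCs and 743 to 1154 CPM in MLL-AF9 cells.

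Of 5 tested genes of the surrogate light chain and recombination, 4 fell, among them Dntt, the polymerase that adds bases at V-D-J junctions, from 24.3 to 0.0130 CPM, and Vpreb3, from 2.06 to 0.483 CPM. Il7r, the receptor for interleukin 7 on early lymphoid cells, did not pass the test (log2 fold change -0.26, SE 0.76, edgeR adjusted p 0.78). Rag1 and Rag2, which cut the segments for joining, were listed at 0 in all libraries, which, as for Ms4a1, may not be a level. Among class switching genes 3 of 7 tested fell (Ung, Apex1 and Msh6) and 1 rose (Trp53bp1, like Apex1 named after its value was seen).

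Receptors that bind antibody were not uniformly lower. Of 11 tested, 7 fell and 1 rose against WT HSPCs. Fcer1g, the signalling chain of several Fc receptors, fell by 1.02 on the log2 scale (SE 0.36, edgeR adjusted p 0.025), and the inhibitory receptor Fcgr2b rose by 0.70 (SE 0.25, adjusted p 0.027). Fcgr3 was at 137.6 CPM in WT HSPCs and 84.2 CPM in MLL-AF9 cells, which did not pass (adjusted p 0.061). Genes of other cells moved with the antibody genes. Of 9 HSPC markers, 6 fell and 1 rose, with Kit at 67.2, Gata2 at 5.16 and Flt3 at 1.40 CPM in MLL-AF9 cells. All 10 T and NK cell genes and all 6 tested erythroid genes fell, most of them tested only through their HSPC counts. The most abundant in WT HSPCs were Nkg7, Lck and Trac in the first list and Klf1, Hbb-bs and Hba-a1 in the second. Summed levels of the lists were 118.9 to 220.7 and 385 to 875 CPM in WT HSPCs against 4.24 to 16.5 and 0.489 to 1.83 CPM in MLL-AF9 cells. The part of these other genes in the fall of the antibody genes was not tested.

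Within MLL-AF9 cells, Ighm was at 7.93, 10.5 and 3.97 CPM in neo cultures 1 to 3 and at 25.4, 8.37 and 26.1 CPM in puro cultures 4 to 6. The groups overlapped through culture 5, which lay under neo culture 2. The log2 fold change of puro over neo was 1.44 (SE 0.56), which did not pass the test (edgeR adjusted p 0.33, unadjusted p 0.038). It was the only member counted highly enough to be tested, so 0 of 1 members were called against a background of 0.873% of 16503 genes. Ighd, too low to be tested here, had 1, 0 and 1 counts in neo and 11, 4 and 9 counts in puro cultures. These values did not overlap but lie near the floor of 3 counts, and how many of all genes had such values was not counted. The joining segments Ighj, between the variable segments and Ighm, had 56 counts in MLL-AF9 cells, all of them in puro cultures (26, 9 and 21 in cultures 4 to 6). Cultures 4 and 6 resembled each other most of all replicate pairs, although they differed by more than sampling noise (chi-square per degree of freedom 8.33), and with their counts summed into 1 sample the log2 fold change of Ighm was 1.22 (adjusted p 0.77).

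**Figure D3:**
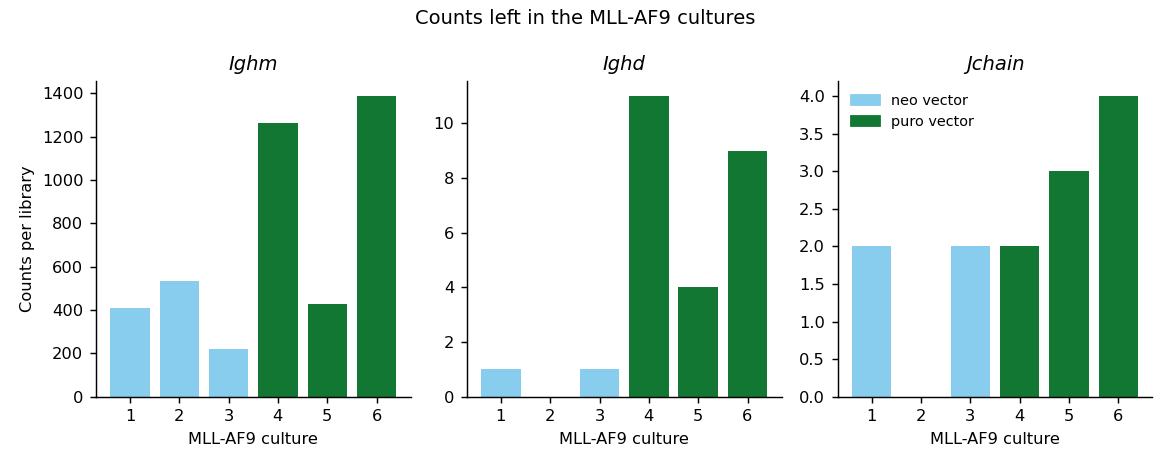
Counts of Ighm, Ighd and Jchain in each of the 6 MLL-AF9 cultures, with bars coloured by vector and each panel on its own linear scale from 0. The neo cultures have 219 to 533 Ighm counts and at most 1 Ighd count, and puro cultures 4 and 6 have 1265 and 1388 Ighm counts.

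Between the genotypes, the question is what loss of the microRNA changes in untransformed cells. None of the 9 tested members passed the threshold (0 of 9 at an adjusted p under 0.05 in edgeR, 1 of 9 at an unadjusted p under 0.05), against a background of 0% of 15056 genes, 86 of which passed without adjustment. DESeq2 and limma-voom called 0 members too. The estimates were above 0 for 8 of the 9 members, with a median of 0.62 where the median of all genes was -0.03. Ighg1 had the largest, a log2 fold change of 1.33 (SE 0.43, unadjusted p 0.013, edgeR adjusted p 0.9999). Its estimate was 1.03 within low-share and 1.58 within high-share libraries, and its adjusted p was 0.50 to 1 over the alternatives. Ighd was the member with an estimate under 0, at -0.49 (SE 0.33, adjusted p 0.9999).

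The other members had estimates of 0.37 (SE 0.58) for Igha, 0.43 (SE 0.45) for Jchain, 0.57 (SE 0.47) for Ighg3, 0.62 (SE 0.42) for Ighm, 0.77 (SE 0.76) for Ighg2c, 0.85 (SE 0.48) for Iglc2 and 0.92 (SE 0.53) for Ighg2b. None of the B cell, plasma cell, recombination, class switching or Fc receptor genes tested was called.

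HSPC libraries were also compared by their Gm26917 share. With genotype as a covariate, Igha and Iglc2 were higher in high-share libraries (2 of 9 members against a background of 32.9% of 15056 genes called higher) and Jchain and Ighd were lower (2 of 9 against 36.5%). The shares of members called were under the background in both directions. Jchain was at 223.9, 321.4, 270.2 and 302.9 CPM in the 4 low-share and at 103.5, 67.7, 216.0 and 189.6 CPM in the 4 high-share libraries. These values did not overlap, but how many of all genes had such values was not counted. The log2 fold change of Jchain was -1.09 (SE 0.27, edgeR adjusted p 0.0072). It was -1.63 (adjusted p 0.0064) within WT and -0.49 (adjusted p 0.025) within Mir139KO libraries, a difference that did not pass (interaction 1.16, SE 0.33, adjusted p 0.30). No member passed the interaction test (0 of 9, 0% of 15992 genes).

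Igha, its partner in IgA polymers, went the other way, with a log2 fold change of 1.26 (SE 0.44, edgeR adjusted p 0.039) and a mean of 3332 ± 1495 CPM in high-share against 1486 ± 644 CPM in low-share libraries (SD, n = 4 each), whose values overlapped. The Jchain level per 100 of Ighm and Igha together, per kb, was 4.95 to 8.92 in low-share and 1.30 to 3.57 in high-share libraries. Iglc2 had a log2 fold change of 1.06 (SE 0.33, edgeR adjusted p 0.021) and Ighd one of -0.64 (SE 0.23, adjusted p 0.028).

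Jchain has the lowest GC content of the members, 38.2% in its longest transcript, against 46.5% for Ighd and 48.2% to 53.8% for the other members with counts. After a correction for GC content, the log2 fold change of Jchain between the classes was 0.09 (adjusted p 0.80), that of Ighd -0.04 (adjusted p 0.91), that of Igha 1.03 (adjusted p 0.10) and that of Iglc2 1.42 (edgeR adjusted p 0.021). With each library left out in turn 1 to 4 members were called, with 1 called without WT replicate 1 or Mir139KO replicate 2 and 2 called without WT replicate 3 or Mir139KO replicates 3 or 4. Plasma cell genes were also higher in high-share libraries for 10 of 16 genes and lower for 4, with Ssr4 at 1.08, Txndc5 at 0.64 and Xbp1 at 0.57 on the log2 scale, and their part in these values was not tested.

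**Figure D4:**
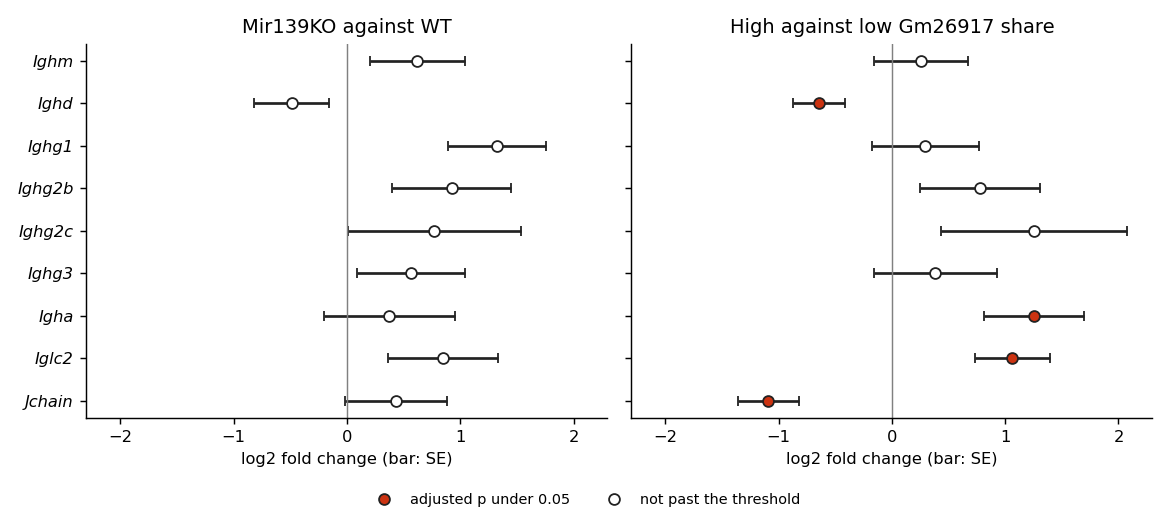
Log2 fold change (points) and its SE (bars) of the 9 tested members for Mir139KO against WT HSPCs (left) and for high against low Gm26917 share with genotype as covariate (right), red where the adjusted p is under 0.05. No point is red on the left, and on the right Igha and Iglc2 are above 0 and Ighd and Jchain below.

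Genes outside the antibody loci were ranked by how closely their centred log2 CPM followed a member, as the root mean square difference over libraries. Over all 14 libraries the 5 closest to Ighm were Ank1 (0.69), Car2 (0.71), Ces2g (0.81), Klf1 (0.81) and Ctse (0.86), where Ighm itself varied by 3.92. The 5 closest to Jchain were Ermap (0.95), Tal1 (1.09), Atp1b2 (1.13), Aqp1 (1.35) and Col1a1 (1.37), where Jchain varied by 5.53. Both sets follow the step between HSPCs and MLL-AF9 cells. Over the 8 HSPC libraries alone, the closest to Ighm were Tram2, Pim1, Tent5c, P2rx7 and Scpep1 (0.41 to 0.42, with a spread of 0.58 in Ighm), and the closest to Jchain were Kcnh6, Rxylt1, Vwa5a, Serp1 and Ms4a6b (0.30 to 0.34, with a spread of 0.74 in Jchain). No likeness could be given for Igkc, which was at 0.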

How the data were processed

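The 10 members and the gene lists were chosen with earlier results of these data known. Total RNA was depleted of ribosomal RNA (KAPA HyperPrep with RiboErase) and sequenced on a NovaSeq. The authors mapped reads to GRCm38 with STAR 2.5.3e and deposited raw counts per gene from featureCounts 1.6.0 with GENCODE release M15. The settings for strand and for reads on several genes are not given in the sources used here, and multi-mapped reads could lower genes with near copies. A second deposited table, which adds columns of other samples, was not used here.

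Groups came from sample titles, and the vectors of the MLL-AF9 cultures from sample descriptions and the headers of the count columns. Gene identifiers were matched without version to GENCODE release M21 (GRCm38), which placed 52403 of 52550 genes. Each comparison was fitted over all its genes with edgeR 4.0.16 (R 4.3.3, TMM factors, robust quasi-likelihood test, at least 10 counts in as many libraries as the smaller group, Benjamini-Hochberg adjustment, threshold 0.05), and the steps were tested on simulated data. The standard error is the log2 fold change over the square root of F. HSPC libraries were split at a Gm26917 share of 25%. Fitted fold changes of genes near 0 depend on the prior count, so floors of 3 counts and 95% exact Poisson intervals are given. Log2 CPM used a prior count of 2.

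Named were all members, the 3 most abundant genes of each list in WT HSPCs (some class switching genes are not reported here), and for Ighm, Igkc and Jchain the 5 genes of closest profile among those averaging 3 or more in log2 CPM. Alternatives were RLE factors, total counts, scaling without immunoglobulin genes, Gm26917 left out, DESeq2 1.42.0, limma-voom (limma 3.58.1), no filter, only genes averaging 100 counts or more, a single fit of the 14 libraries, a threshold of 0.01, a required change of 1 on the log2 scale, blocking on replicate number, single vectors or share classes, MLL-AF9 replicates 4 and 6 summed, and each replicate left out. A GC correction (spline with 5 degrees of freedom) the split within each genotype, and lengths of the shortest coding transcript were chosen after seeing the data.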

Additional observations from a re-analysis of the deposited data

Results flagged for a closer look

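In some groups 1 library lay far from the others by Dixon's test at the 95% level, which chance alone meets in about 1 of 20 groups. In WT HSPCs this was replicate 3 for Igha (4999 CPM, next highest 1418), Ighg2b (542.2, next 220.5) and Ighg2c (315.7, next 57.5), and in Mir139KO HSPCs replicate 1 for Ighg1 (453.4, next 235.6) and Iglc2 (120.9, next 48.3). MLL-AF9 replicate 3 was set apart by 1 count of Ighg1 (0.0181 CPM) and 2 counts of Ighg2c (0.0362 CPM), where the other cultures had 0. With all others at 0 any count meets this test, so its chance rate does not hold there. Both values were under the floor of 3 counts, and nothing is concluded from them.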

How the results depend on the processing

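Counts of members called stayed at 9 against WT and 9 against Mir139KO HSPCs, or 8 of 8 tested with a mean of at least 100 counts, and at 0 for genotype and for the interaction, under every alternative run. For puro against neo the count was 1 with all 14 samples in a single fit, where Ighd was tested and called. For high against low share the 4 calls became 1 at an adjusted p under 0.01, 2 with total counts only, 7 with no filter, 1 with the GC correction, 1 in WT and 2 in Mir139KO libraries alone, and 1 to 4 with a replicate left out. Of 869 log2 fold changes of members under alternatives, 829 kept their direction and side of the threshold. Those that turned were in calls not past the threshold, except Jchain in high against low share, 0.0899 with the GC correction. For Ighm in that comparison they were -0.41 with total counts only, -0.0794 in WT libraries alone and -0.25 to 0.46 with a replicate left out. For Ighg1 they were -0.39 with total counts only and -0.0104 to 0.90 with a replicate left out. For Ighg3 they were -0.29 with total counts only, -0.0719 in WT libraries alone and -0.17 to 0.71 with a replicate left out. Total counts moved the median of all genes there from -0.02 to -0.70. For Ighg3 in Mir139KO against WT the range was -0.0257 to 0.81 with a replicate left out. Other causes were not tested.

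Deviations of same-numbered WT and Mir139KO libraries correlated at -0.55, 0.63, -0.57 and 0.42. The signs followed the Gm26917 share class, which differs within replicate numbers 1 and 3 and is the same within 2 and 4. The correlations therefore cannot show whether same-numbered libraries were paired. With a replicate block 9, 9, 0 and 0 members were called against WT, against Mir139KO, for genotype and for vector.

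On the scale of the levels, 3 counts were worth 0.0544 to 0.0603 CPM in MLL-AF9 libraries and 0.0624 to 0.129 CPM in HSPC libraries, so members at 0 in MLL-AF9 cells were not detectable at this depth rather than absent.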
